A study of Arabidopsis thaliana with 2 samples.

Results

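The genes described here are those that an Agilent Arabidopsis array annotates as ABC transporters. They are the 97 of 21500 non-control probes whose description in the replicate 1 scanner file holds the words "ABC transporter" in any case, matched to replicate 2 by probe name. The words were found for 104 probes, of which 7 were left out by locus, among them genes linked to aluminium tolerance, suberin and coumarin export. Each of the 97 probes stands for a different locus, and the locus was the same in the array layouts of both replicates. A test was possible for 90 of them.

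The RNA was root RNA from Arabidopsis thaliana, ecotype Col-0, taken from hydroponic seedlings 10 days old that had grown at pH 5.5. The treated roots spent 6 h in solution with 10 µM AlCl3 at pH 5.0, and the control roots 6 h at pH 5.0 with no AlCl3, so that the lower pH was common to both. Aluminium and control RNA were labelled with different dyes and hybridised to the same 2-colour array, and there were 2 arrays, labelled biological replicates. Dyes were exchanged between the arrays, with aluminium RNA in Cy3 on replicate 1 but in Cy5 on the other, so dye, array layout, scanner software and replicate cannot be told apart. How many seedlings each sample pooled is not given in the sources used here. The comparison asks which of these transcripts differ between roots with and without aluminium.

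ABC proteins bind and split ATP in a conserved nucleotide-binding domain, and most use it to move a substrate across a membrane. Plants have more of them than animals do, and they are sorted into subfamilies named by letter. In roots, ABCB proteins carry auxin, ABCC proteins load conjugates and metal complexes into the vacuole, and ABCG proteins export lipids, hormones and defence compounds. ABCE and ABCF proteins have no membrane domain and act with ribosomes, and the mixed ABCI group holds single-domain proteins, many of them parts of plastid or mitochondrial complexes.

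Values are log2 ratios of aluminium over control, written as the mean ± SD over 2 arrays (n = 2), where 1 is a doubling. Signals are normalized log2 intensities of 1 channel, which serve to compare treatments for 1 probe and not probes with each other. Adjusted p-values come from limma's test of both ratios against 0, with Benjamini-Hochberg adjustment over 19194 genes, and a gene "rose" or "fell" where the adjusted p was under 0.05. Over the 4 channels the median signal was 4.60 to 8.62 times the local background, and 94.4% to 96.4% of probes were well above it. All 31 probes for root and green shoot marker genes were well above background in all 4 channels, so detection alone does not separate root from shoot tissue here.

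Of the 90 tested ABC transporter genes, 8 rose, 5 fell and 77 did not pass, and among all genes 14.7% passed in either direction. Among all genes tested 8.25% rose and 6.48% fell, so the family's shares of 8.89% and 5.56% were near the background. The middle gene of the family had a mean ratio of 0.019 (0.018 for the first array alone, 0.011 for the second), against 0.0022 over all genes. The middle part of the family, from the lower to the upper quartile, ran from -0.09 to 0.25, against -0.15 to 0.16 over all genes. Ratios had the same sign on both arrays for 60 of the 90 genes, where 71.4% of all genes did. At least a doubling on both arrays was reached by 3 members, ABCC7, ABCC6 and ABCA7 (background 1.64%), and 0 were lower by as much on both arrays (background 0.891%). The lower group was led by ABCB19 and ABCB15, each a little over 2-fold lower on average.

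**Figure D1:**
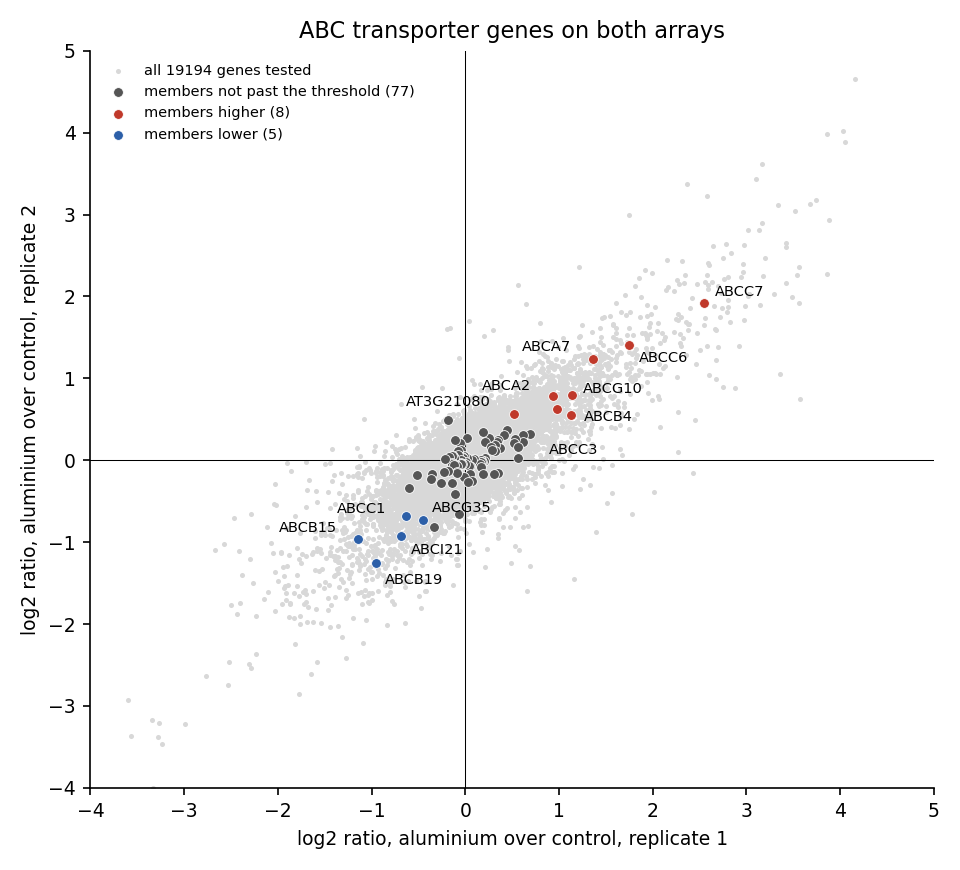
Log2 ratio of aluminium over control on replicate 1 (horizontal axis) and replicate 2 (vertical axis). Grey points are all 19194 genes tested and the larger points are the 90 tested ABC transporter genes, with the 8 higher in red, the 5 lower in blue and the 77 others dark. All 13 coloured genes lie on the same side of 0 on both arrays, and the dark points gather around 0.

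For all 13 genes past the threshold, the 2 aluminium signals and the 2 control signals did not overlap. In the whole family the aluminium signals lay above the control signals for 20 genes and below them for 13, where 17.7% and 16.9% of all genes did so. Non-overlap alone is therefore common on these arrays. The signals are made from the same ratios that were tested, so it adds no separate support for the calls. Probe sequences were not used here, and how well each probe separates close relatives was not tested.

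The ABCC genes held the largest ratio of the family. These genes encode vacuolar and other membrane pumps once called multidrug resistance-associated proteins. Of 13 tested, 3 rose, 1 fell and 9 did not pass. These are shares of 23.1% and 7.69%, where 8.25% of all genes rose and 6.48% fell. The ABCC median of 0.05 differed between the arrays, at 0.096 for the first and 0.014 for the second. ABCC7 (AT3G13100) had signals of 10.32 with aluminium and 7.78 without on replicate 1, and of 10.08 and 8.16 on replicate 2. The aluminium signal was well above the control on both arrays. Its ratio of 2.24 ± 0.44 is 4.71-fold (95% interval 1.81 to 2.66, adjusted p = 0.00397), and it ranked at place 66 of all genes from the top.

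ABCC6 (AT3G13090) had signals of 9.70 and 7.95 with and without aluminium on replicate 1, and of 9.64 and 8.23 on replicate 2. Its ratio of 1.58 ± 0.24 is 2.98-fold (adjusted p = 0.0041). ABCC3 (AT3G13080), which moves glutathione conjugates and chlorophyll breakdown products when made in yeast, had signals of 9.53 and 8.55 on replicate 1 and of 9.96 and 9.33 on replicate 2. It rose by 0.81 ± 0.25 (1.75-fold, adjusted p = 0.0173). The treatments did not overlap for either gene. ABCC3, ABCC6 and ABCC7 lie next to each other on chromosome 3, and all 3 rose.

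ABCC1 (AT1G30400) went the other way. It loads phytochelatin complexes of metals and other conjugates into the vacuole, together with ABCC2. Its signals were 9.03 with aluminium and 9.67 without on replicate 1, and 9.29 and 9.97 on replicate 2, lower with aluminium on both arrays. The ratio was -0.65 ± 0.029 (adjusted p = 0.0153). ABCC2 (AT2G34660) had 0.36 ± 0.075 and did not pass (adjusted p = 0.0699), and its interval of 0.11 to 0.60 does not overlap that of ABCC1, which ran from -0.89 to -0.42.

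The other ABCC genes stayed between -0.35 and 0.36. ABCC11 and ABCC12, the chromosome 1 neighbours of ABCC1, had 0.36 ± 0.28 and 0.05 ± 0.14. ABCC5, which loads inositol phosphates into seed vacuoles, had 0.06 ± 0.058. ABCC9 and ABCC15 had -0.01 ± 0.10 and -0.04 ± 0.0044. On the negative side ABCC8 had -0.26 ± 0.14, ABCC13 -0.26 ± 0.22 and ABCC10 -0.35 ± 0.24. None of these 8 passed, and ABCC4 (0.21 ± 0.22) and ABCC14 (-0.39 ± 0.11), whose probes carry other descriptions, did not pass either.

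**Figure D2:**
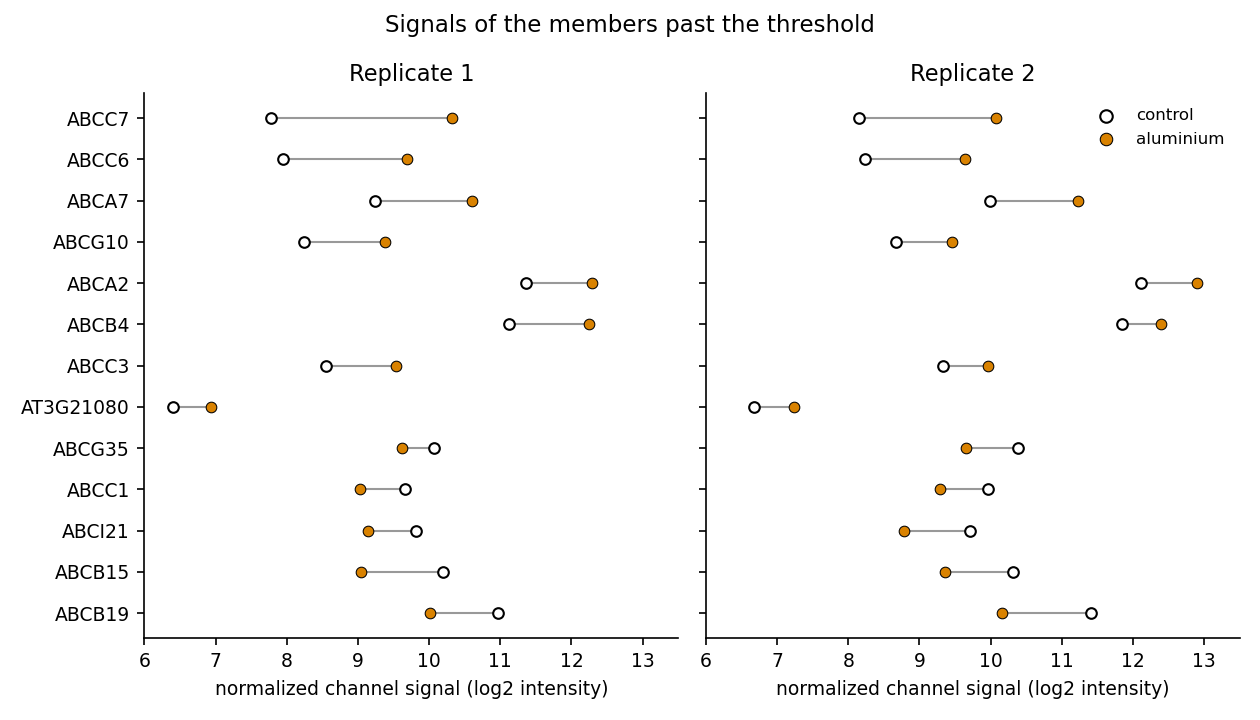
Normalized log2 signal in the control channel (open circles) and the aluminium channel (filled circles) on each array for the 13 ABC transporter genes past the threshold, ordered by mean ratio. Each grey line is the ratio on that array. For ABCC7 it spans 2.55 on replicate 1 and 1.92 on replicate 2, and for the lower 5 genes the filled circle lies left of the open one on both arrays.

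The ABCB genes held the lowest ratios of the family, and auxin carriers stood at both ends. Of 14 tested ABCB genes 1 rose, 2 fell and 11 did not pass. The shares were 7.14% and 14.3%, where 8.25% of all genes rose and 6.48% fell. ABCB19 (AT3G28860) is an auxin exporter of the plasma membrane that keeps auxin in the transport stream of the stele. It had signals of 10.01 with aluminium and 10.96 without on replicate 1, and of 10.16 and 11.41 on replicate 2. The ratio of -1.10 ± 0.22 is 2.15-fold lower (95% interval -1.40 to -0.81, adjusted p = 0.00784), the lowest of the family.

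ABCB4 (AT2G47000), an auxin carrier of the root epidermis and root hairs, had 12.25 and 11.12 with and without aluminium on replicate 1, and 12.40 and 11.84 on replicate 2. It rose by 0.84 (adjusted p = 0.0299), with 1.13 on replicate 1 and 0.55 on replicate 2, so that the value without replicate 1 is over 1.5 times smaller. ABCB21, its closest relative, carries auxin in either direction and had 0.69 and 0.32 on the 2 arrays (0.50 ± 0.26, adjusted p = 0.0566). It did not pass, and its direction was that of ABCB4.

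Of the 6 genes listed as auxin carriers or close relatives of them, 3 are described on the array as ABC transporters, namely the 3 above. The other members of that list carry other descriptions. ABCB11 and ABCB12, relatives of ABCB4, rose by 0.99 ± 0.26 (adjusted p = 0.0115) and 0.72 ± 0.29 (adjusted p = 0.0276). ABCB1, which exports auxin together with ABCB19, had 0.23 ± 0.031 and did not pass. TWD1, the immunophilin that both exporters need to reach the plasma membrane, had 0.02 ± 0.067.

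ABCB15 (AT3G28345) belongs to a set of related genes on chromosome 3 and has been tied to auxin transport in stems. Its signals were 9.05 with aluminium and 10.19 without on replicate 1, and 9.35 and 10.31 on replicate 2. It fell by 1.05 ± 0.13 on the log2 scale (adjusted p = 0.00662), whereas its neighbour ABCB16 had -0.16 ± 0.037 and did not pass. Among the other ABCB genes ABCB6 had 0.30 ± 0.067, ABCB20 0.21 ± 0.081 and ABCB9 -0.06 ± 0.16.

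The ABCB genes of organelles did not pass. ABCB25 (ATM3), the mitochondrial carrier needed for iron-sulfur proteins of the cytosol, had 0.27 ± 0.013. Its relatives ABCB24 and ABCB23 had 0.02 ± 0.13 and -0.08 ± 0.076. ABCB29 had 0.00 ± 0.038 and ABCB28 -0.19 ± 0.055. In the organelle list of 7 genes limma called 0. Before adjustment 1 of the 7 had a p under 0.05, where 30.7% of all genes did.

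Subfamily A rose at 2 genes of a single cluster. Proteins of this subfamily move lipids in animals, and in Arabidopsis ABCA9 supplies fatty acids for seed oil. Of 12 members 9 were tested, 2 rose (22.2%) and 0 fell, where 8.25% of all genes rose and 6.48% fell. The median of 0.28 rested on replicate 1, being 0.35 on that array and 0.024 on replicate 2. ABCA7 (AT3G47780) had signals of 10.60 with aluminium and 9.24 without on replicate 1, and of 11.22 and 9.99 on replicate 2. Its ratio of 1.30 ± 0.091 is 2.46-fold (95% interval 1.05 to 1.55, adjusted p = 0.00397).

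ABCA2 (AT3G47730) had 12.29 and 11.35 with and without aluminium on replicate 1, and 12.90 and 12.11 on replicate 2. It rose by 0.86 ± 0.11 (1.81-fold, adjusted p = 0.00934). Both genes had higher aluminium signals on each array. They are part of a run of 7 ABCA genes, from ABCA2 to ABCA8, of which 5 were tested. The tested genes between and beside them were positive on both arrays without passing, with ABCA8 at 0.40 ± 0.20, ABCA6 at 0.56 and 0.02 on the 2 arrays, and ABCA4 at 0.28 ± 0.083. ABCA3 and ABCA5 of this run were not tested for want of signal.

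Outside the cluster none of the 4 tested ABCA genes passed. ABCA1 had 0.12 ± 0.14. ABCA9 had 0.10 ± 0.36 and opposite signs on the arrays. ABCA10, its neighbour on chromosome 5, had -0.01 ± 0.080, and ABCA11 had 0.05 ± 0.18.

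**Figure D3:**
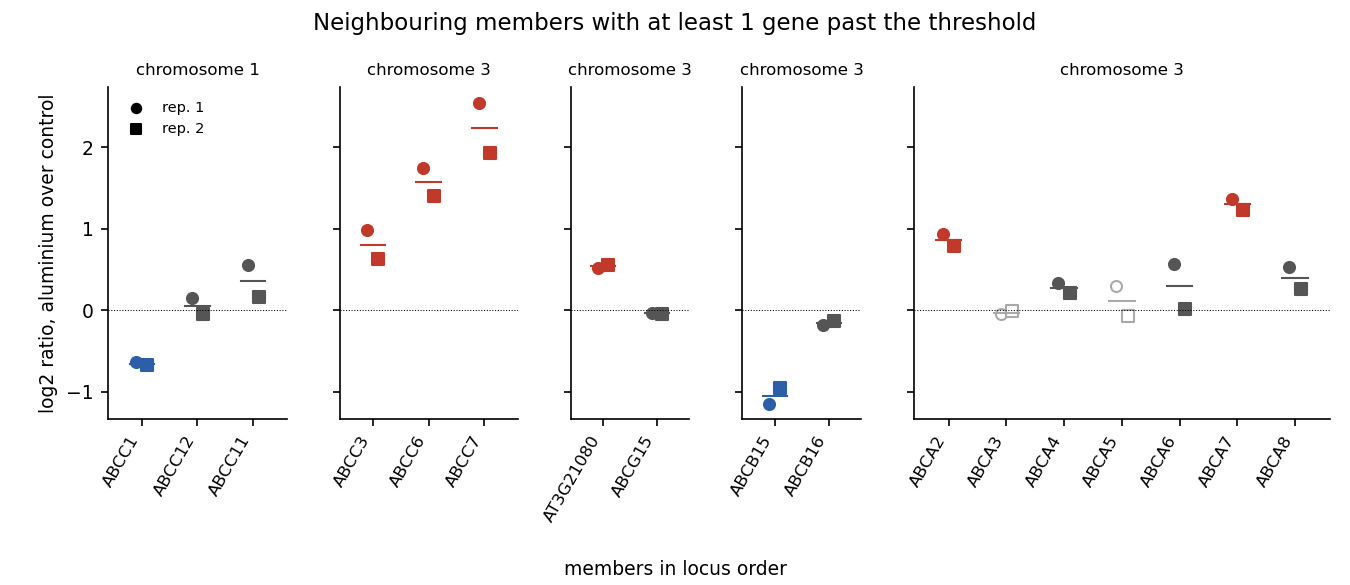
Log2 ratios of aluminium over control for members that neighbour each other on a chromosome and include at least 1 gene past the threshold, in locus order, with circles for replicate 1, squares for replicate 2 and a bar for the mean. Red genes rose, blue genes fell, and open grey symbols were not tested. All 3 genes of the ABCC3 group rose, while in the ABCC1 and ABCB15 groups a single gene fell.

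By chromosome order 31 members fell into 10 groups of neighbours, with at most 2 other genes between successive members. Of these groups 5 held a gene past the threshold. Among all genes 14.7% passed, and whether calls gather in groups of neighbours was not tested. Besides the ABCC, ABCB and ABCA groups above, ABCG15 had -0.04 ± 0.0011 beside AT3G21080. That locus is described as ABC transporter-related in the newer layout and as an unknown protein in the older, and has no subfamily name. Its signals were 6.93 with aluminium and 6.41 without on replicate 1 and 7.24 and 6.68 on replicate 2, higher with aluminium on both arrays. It was well above background in every channel, but its signals were not far above those of ABCF2 (control 6.12 and 6.09), which was in none. It rose by 0.54 ± 0.027 (adjusted p = 0.0242), and the scanner software's own ratio put it at 1.18 and the series matrix at 1.11, about 2 times as far from 0, neither past the threshold (adjusted p = 0.0533 and 0.0737).

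The ABCG genes are the largest subfamily. Of 37 tested, 1 rose, 1 fell and 35 did not pass, with a median of 0.00. Each of the 2 shares was 2.70%, where 8.25% of all genes rose and 6.48% fell. ABCG10 (AT1G53270) had signals of 9.38 and 8.24 with and without aluminium on replicate 1, and of 9.46 and 8.67 on replicate 2. It rose by 0.97 ± 0.24 (1.95-fold, adjusted p = 0.0112). ABCG35 (AT1G15210), a member of the pleiotropic drug resistance group, had 9.62 and 10.07 on replicate 1 and 9.65 and 10.38 on replicate 2. It fell by 0.59 ± 0.20 (adjusted p = 0.0307). The difference between subfamilies in the share of genes called was not tested.

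The pleiotropic drug resistance group of ABCG proteins exports hormones and defence compounds. Of 14 members 13 were tested, 0 rose and ABCG35 fell (7.69%), where 8.25% of all genes rose and 6.48% fell. ABCG36 (PEN3), the nearest relative of ABCG35, exports defence compounds and an auxin precursor and had 0.25 ± 0.096 (interval 0.01 to 0.50), which did not pass and was positive on both arrays. ABCG34, which secretes camalexin, had signals of 11.04 and 11.37 with and without aluminium on replicate 1 and of 11.22 and 11.85 on replicate 2, but its spot had an outlier mark and it was not tested. ABCG39 had -0.47 ± 0.19 (adjusted p = 0.0516). ABCG29, a carrier of a lignin precursor, had 0.01 ± 0.25, with 0.19 and -0.16 on the 2 arrays. ABCG33 had 0.07 ± 0.34 and ABCG38 0.08 ± 0.14. In the chromosome 4 group ABCG42 had -0.27 ± 0.019, ABCG30 -0.12 ± 0.045, ABCG41 -0.08 ± 0.013 and ABCG43 0.02 ± 0.044.

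None of the 4 abscisic acid carriers passed (limma called 0, with 0 at an unadjusted p under 0.05 against 30.7% of all genes). The importer ABCG40 had 0.00 ± 0.053 with an interval of -0.24 to 0.24, and the exporter ABCG25 had 0.08 ± 0.12 with an interval of -0.17 to 0.34. ABCG30 and ABCG31, which import and export the hormone in seeds, had -0.12 ± 0.045 and -0.07 ± 0.15. The intervals of ABCG40 and ABCG25 leave room for changes of less than 2-fold. ABCG14, which sends cytokinin from root to shoot, had signals of 10.41 with aluminium and 10.75 without on replicate 1, and of 10.21 and 11.03 on replicate 2. Its ratio was -0.58 ± 0.34 (adjusted p = 0.0574), negative on both arrays and short of the threshold.

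Of 7 ABCG carriers of surface, suberin and pollen wall lipids, 0 passed (0 by limma, with 2 at an unadjusted p under 0.05, near the 30.7% of all genes). ABCG16, which acts with ABCG1 in forming the pollen wall, came closest at 0.40 ± 0.053 (adjusted p = 0.0501), with 0.44 and 0.37 on the 2 arrays. ABCG1 had 0.22 ± 0.15. ABCG13, an exporter for petal cutin, had 0.27 ± 0.10 and a control signal above background on 1 array only. ABCG26, needed for the pollen wall, had 0.14 ± 0.18. The wax and cutin exporters ABCG12, ABCG32 and ABCG11 had -0.02 ± 0.028, -0.04 ± 0.10 and -0.11 ± 0.13.

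Other ABCG genes near the ends of the ranking were ABCG23 (0.46 ± 0.22, adjusted p = 0.0611), ABCG17 (0.41 ± 0.28), ABCG3 (-0.30 ± 0.096) and ABCG7, which had -0.07 and -0.65 on the 2 arrays. ABCG17 lies beside ABCG16 on chromosome 3, in a group whose other members ABCG18 and ABCG19 had 0.07 ± 0.13 and -0.09 ± 0.23. ABCG19 gives kanamycin resistance when made in tobacco.

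**Figure D4:**
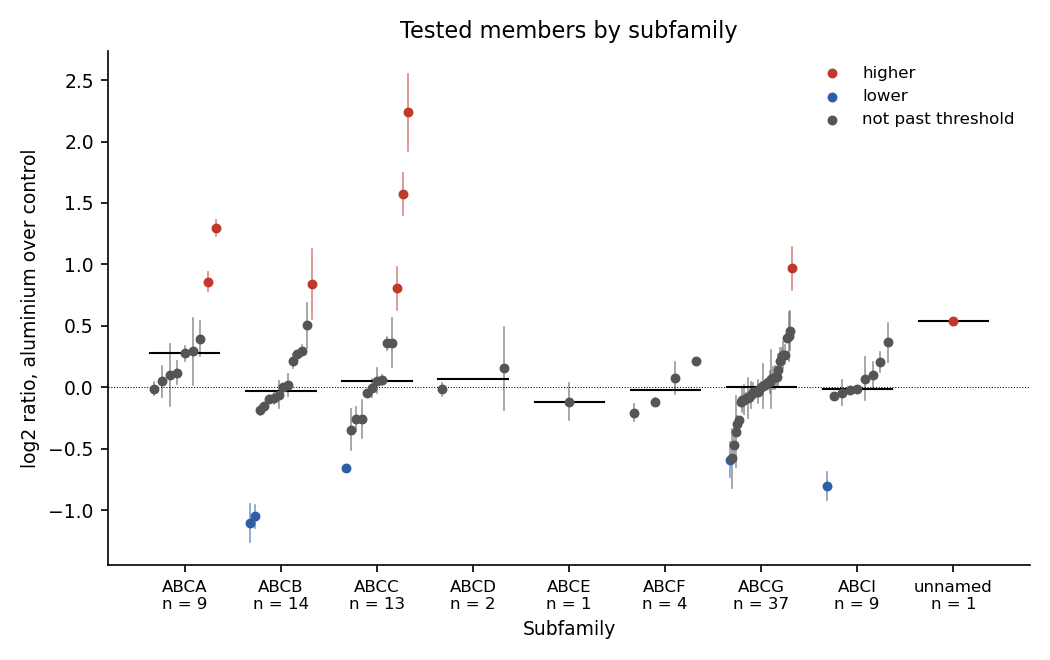
Mean log2 ratio of aluminium over control (points) for the 90 tested members by subfamily, with a vertical line joining the values of the 2 arrays and a horizontal bar at the subfamily median. Genes that rose are red and genes that fell are blue. The ABCC points run from -0.65 to 2.24, while 35 of 37 ABCG points are grey.

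Among the ABCI genes 0 of 9 tested rose and 1 fell (11.1%), where 8.25% of all genes rose and 6.48% fell. ABCI21 (AT5G44110) had signals of 9.14 with aluminium and 9.82 without on replicate 1, and of 8.79 and 9.71 on replicate 2. It fell by 0.80 ± 0.17 on the log2 scale (1.75-fold lower, adjusted p = 0.0131). ABCI19, ABCI20 and ABCI21 form a complex at the endoplasmic reticulum that dampens the cytokinin response in seedlings. Its partners did not pass, ABCI20 being at -0.07 ± 0.028 and ABCI19 at 0.37 ± 0.22. ABCI6 (NAP7), which serves iron-sulfur cluster assembly in plastids, had 0.10 ± 0.15. ABCI13, a subunit of the plastid lipid importer, had -0.11 and 0.25 on the 2 arrays, and ABCI1 had -0.02 ± 0.032.

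In the small ABCD subfamily, ABCD2 had -0.18 and 0.49 on the 2 arrays. In the list of soluble ABCE and ABCF proteins 4 of 5 members were tested and limma called 0, with 0 at an unadjusted p under 0.05 against 30.7% of all genes. ABCF4 had 0.21 ± 0.010, ABCF5 0.08 ± 0.19, ABCF3 -0.12 ± 0.041 and ABCF1 -0.21 ± 0.099. The related ABCE3, which is in no list, had -0.12 ± 0.21. ABCE1 and ABCE2, described otherwise on the array, had 0.16 ± 0.21 and 0.03 ± 0.034.

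A further 24 genes have an ABC name in RefSeq but other words in their probe description. All were tested, 2 rose (ABCB11 and ABCB12) and 0 fell, where 8.25% of all genes rose and 6.48% fell. Among them ABCB14, a malate importer of guard cells, had -0.12 ± 0.18, and the plastid lipid importer subunits ABCI14 and ABCI15 had -0.02 ± 0.022 and -0.18 ± 0.16. Of the 8 loci left out by name, 7 have a description with the words "ABC transporter". Among all 8, 3 rose and 0 fell, beside the same shares of all genes.

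Of the 97 members 7 were not tested, ABCG34 for its outlier mark and 6 because no channel was well above background on at least 1 array. Of those 6, ABCF2 and NAP12 were not well above background in any channel. ABCA12 and ABCA3 were above it in both treatments on 1 array. ABCA5 and ABCG28 were above it only in the aluminium channel of 1 array, and no fold is given for them. No member's spot was saturated.

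Markers of several root cell types were lower with aluminium in the same RNA. Of 8 endodermis markers 4 fell, of 7 root hair markers 5, of 4 markers of dividing cells 4 and of 2 stele markers 2. Among all genes 6.48% fell. Of 3 root cap and 7 green shoot markers 0 passed, and 0 rose in any list. The root hair markers PRP3 and LRX1 had positive means (0.21 and 0.22) and did not pass. The listed markers CASP2, CASP4, BRN1 and PHO1 were not on the array. The summed endodermis signal was 5151 and 5392 with aluminium on replicates 1 and 2 against 12744 and 12570 without. The summed stele signal was 1243 and 1258 against 2478 and 2535, that of root hairs 2856 and 2045 against 4962 and 3390, and that of dividing cells 1819 and 1417 against 3158 and 1933. A sum gives more weight to brighter probes and does not describe each marker. The endodermis ratios ran from -3.11 (ESB1) to -0.01 (CASP5), and 4 of the 8 did not pass. All measured markers were above background in every channel. In the same RNA 8 ABC transporter genes rose and 5 fell. The part of the marker changes in either result was not tested, and the cell types that express these 13 genes were not measured here. In whole-root RNA, fewer cells of a type and less RNA per cell cannot be told apart.

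The 13 calls depended on how the ratios were made, although their direction did not. The scanner software's own ratios kept 3 of the 13 calls (ABCC7, ABCC6 and ABCA7). The series matrix values, tested for 88 members, kept 0. Before adjustment 24 of the 88 had a p under 0.05, which is near the 27.2% of all genes in those values, and 0.0541 was the lowest adjusted p in the family. Over 9 alternatives ABCC7 ranged from 2.06 to 2.56 and ABCB19 from -1.17 to -1.06.

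**Figure D5:**
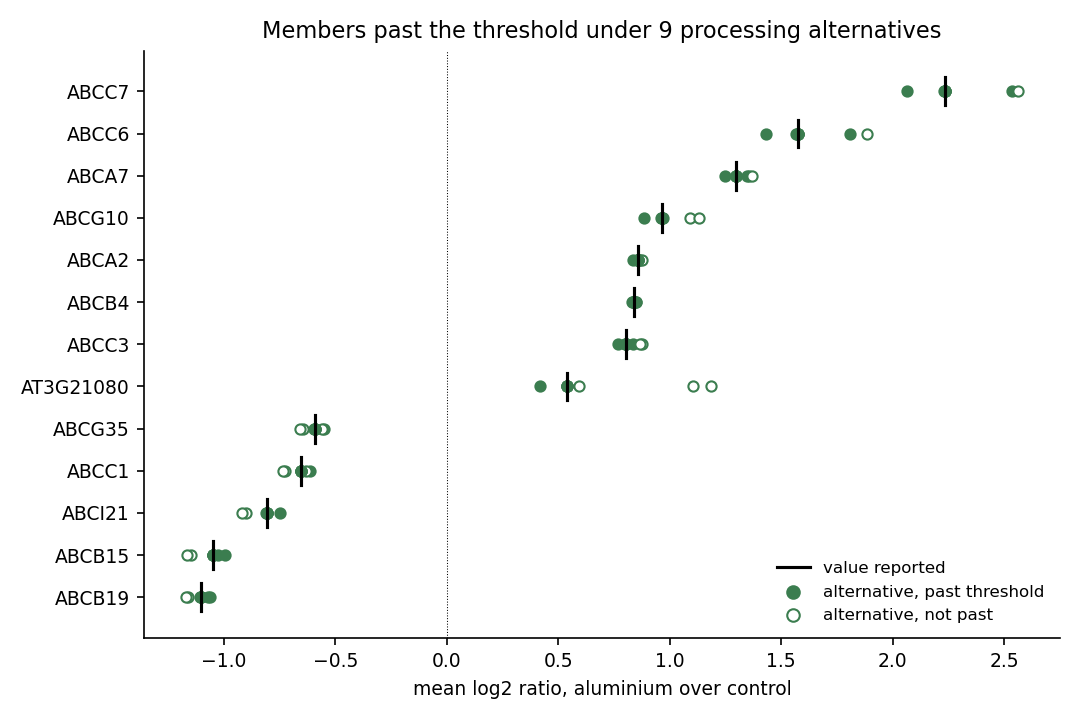
Mean log2 ratio of aluminium over control for the 13 genes past the threshold as reported (black bar) and under 9 alternatives, filled where the gene passed the threshold and open where it did not. Each gene keeps its side of 0 in all of them, and AT3G21080 has the widest spread relative to its value, from 0.42 to 1.18.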

How the data were processed

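Roots of 2 aluminium-treated and 2 control samples were measured on 2 arrays. The deposited intensity values are unnormalized spot signals per channel, made with Feature Extraction 8.1.1.1 (replicate 1) and 7.1.1 (replicate 2) per the file headers, whereas the submitters' processing notes name 9.5.1.1. The deposited log10 ratios of Cy5 over Cy3 are the scanner software's own, background-subtracted and dye-normalized, per the file headers. In the series matrix the authors' deposited log2 values cover 20346 probes, with medians of -0.0103 and -0.0112. Set against the scanner ratios (r = 0.998 and 0.887), they run as aluminium over control on the log2 scale, with normalization and centring unknown.

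The mean spot signals were background-corrected by normexp (offset 50), normalized by loess within arrays with control spots (736 and 1075) at weight 0, turned to aluminium over control, and tested with lmFit and eBayes in limma 3.58.1 under R 4.3.3, on 1 residual and 4.06 prior degrees of freedom. Channel signals were taken after Aquantile scaling. Left out were 108 probes with outlier marks, 1151 without a channel well above background on each array, and 1047 without a shared locus. The smallest p of an exact sign-flip test on 2 arrays is 0.5. RefSeq's gene table (assembly TAIR10.1) lists all 97 members, of which 94 had an ABC name, used for subfamilies. NAP5 and NAP12 were counted as ABCI by their older names. Coordinates are left out because no build is named. Tested on simulated data (10 runs, 19194 genes, 200 changed), the fit recovered 3.40% of changes of 0.5 on the log2 scale, 87.8% of 1, 99.8% of 2 and 99.6% of 3, and 10.2% of calls were false, above the nominal 5%.

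Named genes were all members past the threshold, the 10 highest and 10 lowest, all members in the role lists, those with a flagged or dim spot, and neighbours of called members; the others named were chosen after their values were seen. Members and lists were chosen with earlier results of these data known. Some members that this rule names are not reported here.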

Additional observations from a re-analysis of the deposited data

How the results depend on the processing

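The counts of higher and lower ABC transporter genes (8 and 5) became 3 and 0 with the scanner software's ratios and 0 and 0 with the series matrix values, and with median centring in place of loess the lower count was 3. Over all genes (1583 higher and 1243 lower) the same alternatives gave 170 and 118, 0 and 0 (5073 at an unadjusted p under 0.05), and 889 and 586. The cause was not tested. The family median of 0.019 was 0.035 with the scanner ratios, 0.038 with median centring and with the series matrix values, 0.014 with no filter on dim probes, and 0.011 to 0.018 without replicate 1 or 2. Median centring ended the calls of ABCC1, ABCG35 and AT3G21080. The 13 calls were kept with no background correction, scaling between arrays, no or a stricter filter on dim probes, outlier marks kept, and an intensity trend in the prior. The trend added ABCB21, ABCC2, ABCG14, ABCG16 and ABCG23, scaling added ABCB21, ABCG16 and ABCG39, the stricter filter ABCG16 and ABCG39, and no background correction ABCG16. No called member changed sign in any alternative. Leaving out an array leaves no residual degrees of freedom, so it gives values with no test, and for counts it was not run. The pairing is already part of the test, because each array holds a treated and a control sample and the ratio tested is that of the pair. In the simulation, with 200 of 19194 genes changed, 3.40% of changes of 0.5 on the log2 scale were recovered. Here 2826 of 19194 genes passed, so that share may not carry over to these data. Near 0.5, AT3G21080 (0.54) passed and ABCB21 (0.50) did not.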
